A study of Mus musculus with 6 samples.

Results

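The urea cycle set comprised 6 enzymes (Nags, Cps1, Otc, Ass1, Asl and Arg1) and 2 carriers (Slc25a15 and Slc25a13), found by their symbols in the platform annotation, with the brightest probe set kept for each gene. Of the 8, 7 had a probe set of their own, among 65956 probe sets on the array and 30713 genes named by at least 1 probe set. The eighth, Ass1, shares its probe set with Gm5424, a second symbol that the annotation lists beside it, so its values are given separately and enter no count. Each gene had 1 probe set, and the rule used no measured difference between groups. Levels are log2 signals, on which a difference of -1 is a halving. Levels of different probe sets are not compared, since probes differ in brightness for reasons other than RNA amount. Where 3 values are given for a group, they are its arrays 1, 2 and 3 in that order.

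The urea cycle converts ammonia, which is released when amino acids are broken down, into urea for excretion by the kidney. The full cycle runs mainly in hepatocytes, and most of its enzymes are more abundant in periportal hepatocytes, near the portal vein, than around the central vein. N-acetylglutamate, made by the product of Nags, activates carbamoyl phosphate synthetase (Cps1) in mitochondria, and ornithine transcarbamylase (Otc) forms citrulline there. Argininosuccinate synthase (Ass1), argininosuccinate lyase (Asl) and arginase (Arg1) complete the cycle in the cytosol, and the mitochondrial carriers Slc25a15 (ornithine and citrulline) and Slc25a13 (aspartate and glutamate) join the compartments.

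The samples were livers of male mice aged 8 weeks, with 1 array for each of 6 samples. The 3 HFD-inulin samples came from offspring of mothers given inulin, a fermentable plant fibre, and the 3 HFD samples from offspring of mothers on a high-fat diet. The strain, the inulin dose, the diet of the offspring and the number of litters are not stated in the sources used here, so the p-values cover the spread between the samples at hand, part of which may be technical. The title of the HFD-inulin group also names HFD, and whether those mothers received both was not taken as known.

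The arrays did not all resemble their own group. Over all probe sets, HFD-inulin array 3 had Pearson correlations of 0.9948 and 0.9949 with HFD arrays 2 and 3, and of 0.9878 and 0.9828 with HFD-inulin arrays 1 and 2. Probe sets numbered on chromosome Y that share identical values put HFD-inulin array 3 with HFD arrays 2 and 3 (means of 2.99 to 3.24), and HFD-inulin arrays 1 and 2 with HFD array 1 (1.34 to 1.91). The cause of this split is not known. Differences of the 7 genes are therefore also given for HFD-inulin arrays 1 and 2 alone, for array 3 alone and with the split as a block. The hepatocyte markers Alb and Ttr were bright in every array, at 11.4 to 11.6 and 10.0 to 10.4.

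No urea cycle gene passed the test. In limma, 0 of the 7 had an adjusted p under 0.05, as had 0% of all 65956 probe sets, and the smallest adjusted p among the 7 was 0.902. At an unadjusted p under 0.05 there were 2 of the 7, Cps1 and Slc25a15, both lower in HFD-inulin, against 5.15% of all probe sets (2.64% lower and 2.52% higher). The mean was lower in 5 of the 7 (Cps1, Otc, Asl, Slc25a15 and Slc25a13) and higher in Arg1 and Nags, where 56.5% of all probe sets were lower. The median difference was -0.29 over the 7 and -0.02 over all probe sets. The groups did not overlap for Cps1 and Slc25a15, which were lower, and for Nags, which was higher, where 6.02% of all probe sets were lower and 4.32% higher without overlap. In these bulk livers, fewer hepatocytes and less RNA per hepatocyte cannot be told apart.

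**Figure D1:**
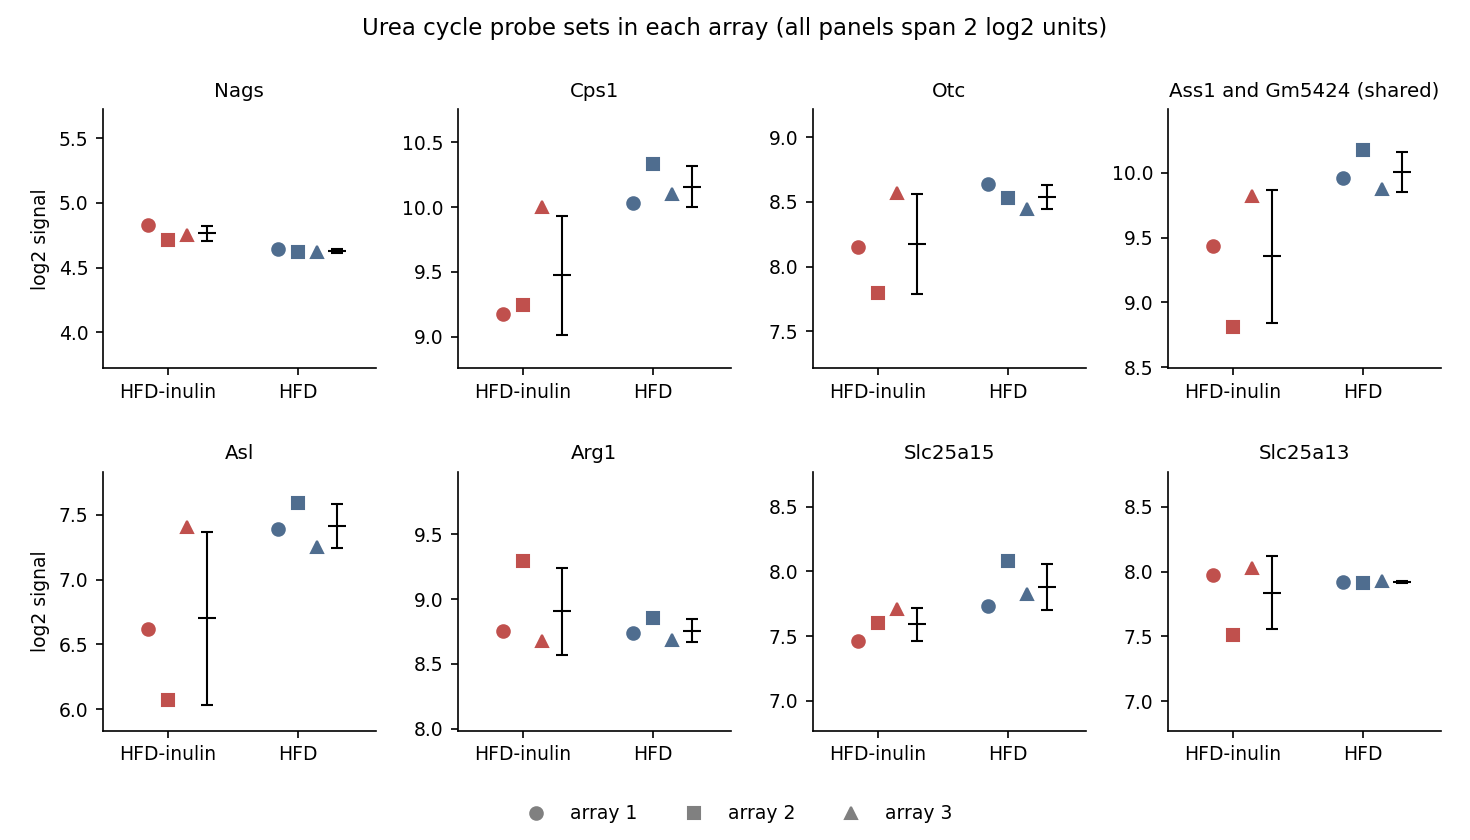
Log2 signal of each urea cycle probe set in HFD-inulin (left, red) and HFD (right, blue) arrays. Symbols are single arrays and the black marks are the mean and SD of 3. Every panel spans the same range. Cps1, Otc and Asl were low in HFD-inulin arrays 1 and 2, while array 3 lay at 10.0, 8.57 and 7.41, near or within the HFD arrays.

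Of the mitochondrial enzymes, Nags had a higher mean in HFD-inulin, and Cps1 and Otc a lower one; differences between genes were not tested. Nags, whose product makes the activator of Cps1, measured 4.83, 4.71 and 4.75 in the HFD-inulin arrays, against 4.65, 4.62 and 4.62 in the HFD arrays. All 3 HFD-inulin arrays lay above all 3 HFD arrays. The difference was small, 0.14 on the log2 scale (SE 0.06, 95% interval -0.01 to 0.28, limma unadjusted p = 0.0657 and adjusted p = 0.902). It was 0.14 without HFD-inulin array 3 and 0.12 for array 3 alone, so array 3 did not stand apart for Nags. With the split as a block it was 0.13. The Nags probe set had a mean signal of 4.70.

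Cps1, which fixes ammonia into carbamoyl phosphate, measured 9.18, 9.24 and 10.0 in the HFD-inulin arrays. Its HFD values were 10.0, 10.3 and 10.1. HFD-inulin arrays 1 and 2 were low, and array 3 lay 0.16 below the HFD mean, just under the lowest HFD array (10.00 against 10.03). The HFD-inulin mean was 9.47 ± 0.46 and the HFD mean 10.16 ± 0.16 (SD, n = 3 each), a difference of -0.68 (SE 0.22, 95% interval -1.22 to -0.15) and a ratio of 0.623. The limma unadjusted p was 0.0201 and the adjusted p 0.902. A difference of at least this size was seen in 0.446% of all probe sets, and in 2.26% of the 6414 probe sets at least as bright as Nags. Without HFD-inulin array 3 it was -0.95 (limma adjusted p = 0.0787), the smallest adjusted p of a urea cycle gene in any setting tried. That array was singled out from these same data as like the HFD arrays, so the larger difference without it is not further evidence. Over all probe sets, 6525 then had an unadjusted limma p under 0.05, against 3399 with all arrays. With the split as a block the Cps1 difference was -0.52, beside -0.29 for Otc, -0.53 for Asl and -0.22 for Slc25a15. The smallest limma adjusted p of the set was then 0.926.

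Otc, which joins carbamoyl phosphate to ornithine, measured 8.15, 7.80 and 8.57 in the HFD-inulin arrays, against 8.63, 8.53 and 8.45 in the HFD arrays. Array 3 of HFD-inulin lay inside the HFD range and the groups overlapped. The difference was -0.36 (SE 0.19, 95% interval -0.81 to 0.08, limma adjusted p = 0.902), made up of -0.56 for arrays 1 and 2 and 0.03 for array 3.

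In the cytosolic steps, the shared Ass1 probe set and Asl had lower means in HFD-inulin and Arg1 a higher one. The probe set listed for both Ass1 and Gm5424 measured 9.43, 8.81 and 9.82 in the HFD-inulin arrays, against 9.96, 10.2 and 9.87 in the HFD arrays. The groups did not overlap, with a difference of -0.65 (SE 0.25, limma unadjusted p = 0.0357 and adjusted p = 0.902). HFD-inulin array 2 was the lowest, as for Asl, but the signal cannot be assigned to Ass1 alone. HFD-inulin array 3 was 0.18 below the HFD mean, and arrays 1 and 2 differed from it by -0.88 on average.

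Asl, which splits argininosuccinate into arginine and fumarate, had the widest spread of the set. It measured 6.62, 6.07 and 7.41 in the HFD-inulin arrays, against 7.39, 7.59 and 7.25 in the HFD arrays. Array 2 was 1.34 below the HFD mean, array 1 was 0.79 below it, and array 3 was inside the HFD range. The mean difference was -0.71 (SE 0.32, 95% interval -1.47 to 0.04, limma unadjusted p = 0.0603 and adjusted p = 0.902). Without HFD-inulin array 3 it was -1.07 (limma adjusted p = 0.132), and array 3 alone differed by -0.01. As for Cps1, array 3 was singled out from these same data, so the larger difference without it is not further evidence. The within-group SD was 0.67 in HFD-inulin and 0.17 in HFD.

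Arg1, which releases urea from arginine, measured 8.75, 9.29 and 8.67 in the HFD-inulin arrays, against 8.74, 8.85 and 8.68 in the HFD arrays. HFD-inulin array 2, where Asl was lowest, had the highest Arg1 value, 0.53 above the HFD mean, and arrays 1 and 3 lay 0.01 and 0.08 below that mean. The difference was 0.15 (SE 0.17, 95% interval -0.25 to 0.54, limma adjusted p = 0.933) and was -0.04 without array 2, 0.26 for HFD-inulin arrays 1 and 2 and 0.10 with the split as a block. Arg1 and Asl had the most unlike profiles of the 21 pairs of urea cycle genes, with a root mean square difference of 0.71 on the log2 scale over the 6 arrays after each was centred on its own mean. Cps1 and Asl were at 0.21 on that measure, and Nags and Slc25a13 at 0.18. The measure is in log2 units, so it also depends on how much each gene varied.

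Both carriers had a lower mean in HFD-inulin. Slc25a15, which exchanges ornithine and citrulline, measured 7.46, 7.60 and 7.71 in the HFD-inulin arrays, against 7.73, 8.08 and 7.83 in the HFD arrays. All HFD-inulin arrays lay below all HFD arrays, array 3 by 0.17 from the HFD mean. The difference was -0.29 (SE 0.11, 95% interval -0.56 to -0.02, limma unadjusted p = 0.0386 and adjusted p = 0.902). It was -0.35 for HFD-inulin arrays 1 and 2 against all HFD arrays, -0.20 among HFD-inulin arrays 1 and 2 and HFD array 1, and -0.24 among HFD-inulin array 3 and HFD arrays 2 and 3. It was -0.19 without HFD array 2, the highest of that group.

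Slc25a13, the aspartate and glutamate carrier also called citrin, measured 7.97, 7.51 and 8.03 in the HFD-inulin arrays. Its HFD values were 7.92, 7.92 and 7.93, so the SD was 0.28 in HFD-inulin and 0.0047 in HFD. Array 2 of HFD-inulin was low and the other two lay above every HFD array. The difference was -0.08 (SE 0.14, 95% interval -0.41 to 0.25, limma adjusted p = 0.954), and 0.08 without HFD-inulin array 2. It was -0.18 for HFD-inulin arrays 1 and 2, 0.11 for array 3 and -0.03 with the split as a block.

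**Figure D2:**
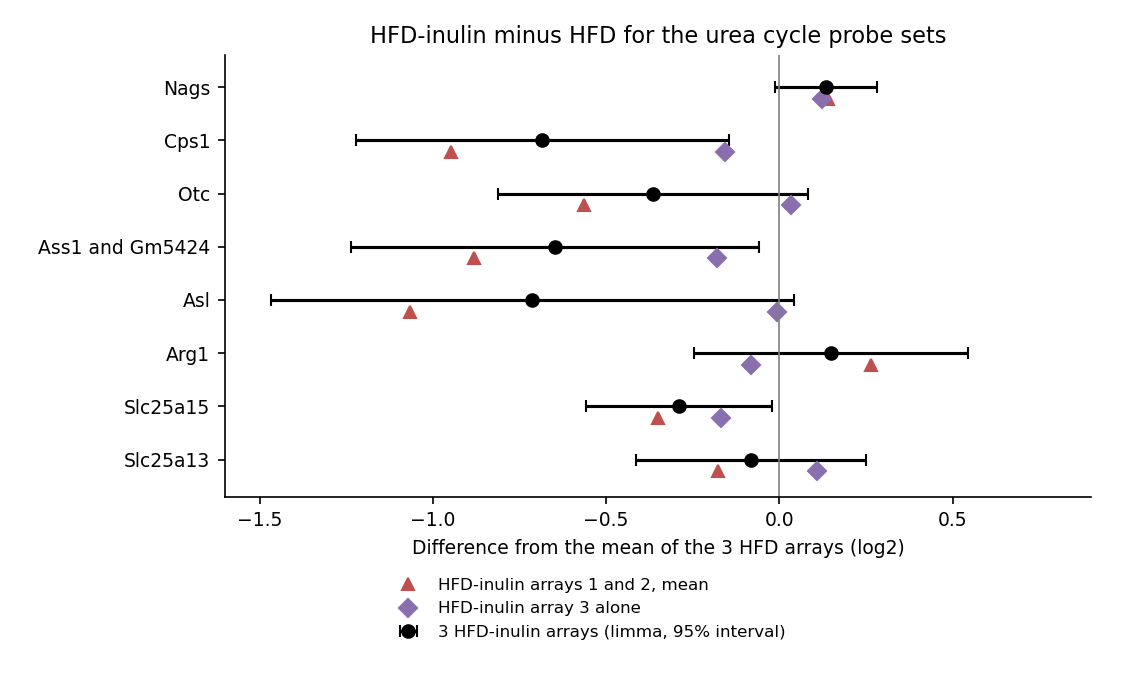
Differences from the mean of the 3 HFD arrays, on the log2 scale, for each urea cycle probe set. Black points with bars are the mean of the 3 HFD-inulin arrays with the 95% interval of limma, red triangles the mean of HFD-inulin arrays 1 and 2, and purple diamonds HFD-inulin array 3 alone. For Cps1 the 3 values were -0.68, -0.95 and -0.16, and for Asl -0.71, -1.07 and -0.01.

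The spread within HFD-inulin was larger than within HFD for 6 of the 7 genes, all but Slc25a15. The median SD over the 6414 probe sets at least as bright as Nags was 0.24 in HFD-inulin and 0.11 in HFD. For Cps1, Otc, Asl, Arg1 and Slc25a13 the SD in HFD-inulin was 0.28 to 0.67, above that median.

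Promoter sequences are shown for genes whose differences ran in opposite directions, from RefSeq (GRCm38.p6): Nags, higher in each HFD-inulin array, and Otc and Slc25a15, lower on average. Of the 8 genes, 5 had a window in the table (Ass1, Nags, Otc, Slc25a13 and Slc25a15, which has 2 start sites), and Cps1, Asl and Arg1 had none. Each line gives the 250 bases before the annotated start site, 5′ to 3′ on the strand of the gene, in lower case with motif matches in capitals.
Nags, chr11:102145263-102145512, plus strand: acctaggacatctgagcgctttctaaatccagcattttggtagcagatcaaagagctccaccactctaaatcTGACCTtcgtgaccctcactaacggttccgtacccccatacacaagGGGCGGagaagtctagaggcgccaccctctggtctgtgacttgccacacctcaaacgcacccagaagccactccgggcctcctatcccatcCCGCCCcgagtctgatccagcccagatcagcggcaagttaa
Otc, chrX:10252055-10252304, plus strand: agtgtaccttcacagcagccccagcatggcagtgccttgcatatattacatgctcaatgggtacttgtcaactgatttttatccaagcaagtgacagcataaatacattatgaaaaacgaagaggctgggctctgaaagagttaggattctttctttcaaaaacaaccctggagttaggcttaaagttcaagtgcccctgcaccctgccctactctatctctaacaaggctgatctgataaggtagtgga
Slc25a15, first start site, chr8:22398622-22398871, minus strand: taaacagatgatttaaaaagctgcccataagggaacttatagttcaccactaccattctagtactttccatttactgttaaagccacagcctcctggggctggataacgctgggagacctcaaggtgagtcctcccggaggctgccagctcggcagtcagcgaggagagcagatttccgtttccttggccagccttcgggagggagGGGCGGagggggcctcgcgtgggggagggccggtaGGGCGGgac
Slc25a15, second start site, chr8:22398278-22398527, minus strand: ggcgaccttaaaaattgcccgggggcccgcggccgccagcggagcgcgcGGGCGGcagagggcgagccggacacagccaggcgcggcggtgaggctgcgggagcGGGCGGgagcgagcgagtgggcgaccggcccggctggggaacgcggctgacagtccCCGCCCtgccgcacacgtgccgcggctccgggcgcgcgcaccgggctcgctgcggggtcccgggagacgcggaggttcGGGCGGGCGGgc

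The motifs searched, on both strands, were CAAAGTC for HNF4, AGGTCA for a nuclear receptor half-site, GTAAACA for FOXO factors, ATTGAT for Onecut factors, TGACG for a cyclic AMP response half-site, AGAACA for a glucocorticoid half-site and GGGCGG for the GC box. Matches to GGGCGG may overlap each other, as at the second Slc25a15 start site. That site held 5 GC boxes, the first one 2, Nags 2 and Otc 0, where 32.7% of 32851 promoter windows of this length held at least 1. Nags also held AGGTCA, with its leftmost base 178 bases before the start site, a motif present in 14.02% of windows. The GC content was 80.4% and 57.6% in the Slc25a15 windows, 55.6% in Nags and 43.6% in Otc, with a median of 52.4% over all windows. None of the windows shown held the HNF4, FOXO or Onecut letters, which were present in 3.84%, 3.17% and 6.72% of windows. A match is a run of letters, not a binding site. Only the exact letters given were searched, so variant forms of a site were missed and an absence of matches is not an absence of sites.

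Genes around the cycle were described from lists, to be read beside all probe sets, of which 56.5% had a lower mean and 2.64% were lower and 2.52% higher at an unadjusted p under 0.05. Among 28 measured enzymes of amino acid breakdown, 22 had a lower mean in HFD-inulin, the median difference was -0.23, and 9 were lower and 0 higher at an unadjusted p under 0.05 (0 at adjusted p, smallest limma adjusted p 0.902). The 4 with the smallest p were Gldc, Kynu, Amt and Cbs. Gldc and Amt belong to the glycine cleavage system, which releases ammonia from glycine, and its other listed components Dld (0.18) and Gcsh (0.09) had higher means. Gldc differed by -0.82 and Amt by -0.21, both lower in every HFD-inulin array than in any HFD array. Kynu, of tryptophan breakdown, differed by -0.63, and Cbs, of homocysteine metabolism, by -0.58.

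Gldc measured 5.31, 5.70 and 5.49 in the HFD-inulin arrays, against 6.31, 6.36 and 6.31 in the HFD arrays. Unlike Cps1, its value in HFD-inulin array 3 was as low as in the other two. The enzymes of histidine breakdown Hal (-1.08), Amdhd1 (-0.999), Ftcd (-0.29) and Uroc1 (-0.83) were lower at an unadjusted p under 0.05, as was Agxt (-0.45), the alanine-glyoxylate aminotransferase. Hal measured 6.49, 6.01 and 7.61 in HFD-inulin, against 7.67, 7.94 and 7.74 in HFD arrays. It was low in arrays 1 and 2, as Asl was.

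Enzymes that supply ammonia, aspartate or bicarbonate gave 5 lower and 4 higher of 9 measured, with a median of -0.07. Got1, the cytosolic aspartate aminotransferase, was the 1 gene under an unadjusted p of 0.05 (limma adjusted p = 0.902). It measured 6.12, 6.08 and 7.29 in the HFD-inulin arrays, against 7.31, 7.70 and 7.39 in the HFD arrays, a difference of -0.97. HFD-inulin array 3 again lay just below the HFD arrays. Gpt2, a mitochondrial alanine aminotransferase, differed by -0.25. Mdh2 (0.30) and Fh1 (0.18), which act on malate and fumarate, had higher means with overlapping groups.

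Of 13 genes of arginine and ornithine handling outside the cycle, 8 were lower and 5 higher, with a median of -0.02. Slc7a2, a cationic amino acid transporter that takes up arginine, measured 7.15, 7.45 and 8.32 in the HFD-inulin arrays, against 8.36, 8.57 and 8.46 in the HFD arrays. The groups did not overlap, and the difference was -0.82 (SE 0.28, limma adjusted p = 0.902). Odc1, which turns ornithine into putrescine, ran the other way, at 6.96, 7.40 and 5.79 in the HFD-inulin arrays, against 6.02, 5.82 and 5.79 in the HFD arrays, a difference of 0.84 with HFD-inulin arrays 1 and 2 high. Azin1, an antizyme inhibitor that protects Odc1 from degradation, differed by 0.35 with an unadjusted p of 0.0210 in limma, and Gatm, of creatine synthesis, by -0.21. The list of amino acid carriers held 17 genes, including Aqp9 (-0.05), a channel gene that is not an amino acid carrier. Of these 17, 9 were lower and 8 higher, with a median of -0.04 and 0 at an unadjusted p under 0.05. The 4 with the smallest p differed by 0.21 (Slc1a4), 0.33 (Slc43a1), -0.15 (Slc38a1) and -0.17 (Slc38a4).

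Transcription factors, receptors and other regulators reported to act on urea cycle genes or enzymes were lower in 12 of 19, where 56.5% of all probe sets were. At an unadjusted p under 0.05, 5 were lower and 1 higher, beside 2.64% and 2.52% of all probe sets. The smallest p were those of Foxo3, Hnf4a, Onecut1 and Foxo1. Hnf4a, a nuclear receptor needed for hepatocyte gene expression, measured 6.86, 6.86 and 6.77 in the HFD-inulin arrays, against 7.38, 7.46 and 7.44 in the HFD arrays. Its HFD-inulin array 3 was the lowest of all, where Cps1, Otc and Asl in that array were near or within the HFD range. Foxo3 in HFD-inulin arrays lay between 3.79 and 3.84, against 4.35 to 4.45 in HFD arrays. Onecut1, a hepatic homeodomain factor, was higher by 1.52, at 5.81, 5.56 and 4.51 in the HFD-inulin arrays, against 4.27, 3.53 and 3.52 in the HFD arrays. Its deviations from the HFD mean were 2.03, 1.79 and 0.74 in the HFD-inulin arrays, smallest in array 3. The limma adjusted p was 0.390 for Foxo3 and Hnf4a and 0.902 for Onecut1 and Foxo1.

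By the root mean square measure, the genes most like Cps1 among 11407 candidates were Pck1 (0.08), the enzyme that opens gluconeogenesis, Cbs (0.09) and Apoa5 (0.12), an apolipoprotein that affects plasma triglycerides. Pck1 measured 8.70, 8.98 and 9.51 in the HFD-inulin arrays, against 9.65, 9.88 and 9.61 in the HFD arrays, with the same arrays low as for Cps1. The genes most like Arg1 were Ginm1 (0.03), Golga5 (0.03), a Golgi protein, and Lrp1 (0.04), an endocytic receptor. Each had its highest value in HFD-inulin array 2. With 6 arrays and many candidates, close profiles are found readily, and all genes share the same arrays.

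**Figure D3:**
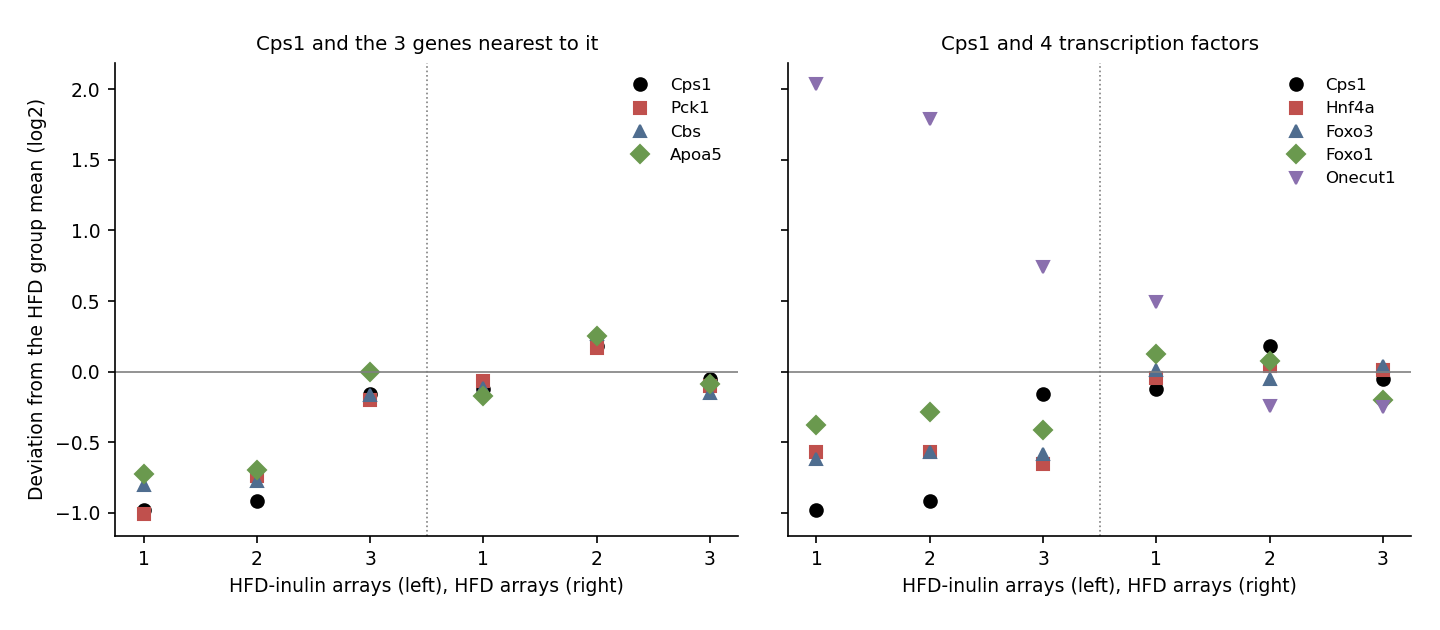
Deviation of each gene from its own HFD group mean (log2), for HFD-inulin arrays 1 to 3 left of the dotted line and HFD arrays 1 to 3 right of it. Left, Cps1 with Pck1, Cbs and Apoa5, which were low in HFD-inulin arrays 1 and 2. Right, Cps1 with Hnf4a, Foxo3, Foxo1 and Onecut1. In HFD-inulin array 3 the deviations were -0.16 (Cps1), -0.65 (Hnf4a), -0.59 (Foxo3), -0.41 (Foxo1) and 0.74 (Onecut1).

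Other gene groups differed in the same arrays. From the HFD mean, the 7 urea cycle genes deviated on average by -0.33, -0.44 and -0.02 in the HFD-inulin arrays. The same deviations were -0.03, 0.09 and -0.06 in the HFD arrays. Without Asl the 6 other genes deviated by -0.26, -0.29 and -0.02 in the HFD-inulin arrays. Acute phase genes, made by hepatocytes in inflammation, deviated by 1.12, 2.19 and -0.23 in the HFD-inulin arrays and by 0.03, 0.27 and -0.30 in the HFD arrays. All 16 had a higher mean in HFD-inulin and 0 had groups apart. Of all probe sets, 56.5% had a lower mean and 10.3% had groups apart. Among the acute phase genes, Saa2 (2.99), Hp (0.50), Saa1 (2.59) and Lcn2 (2.17) had the smallest p. Genes induced by fasting deviated by 0.64, 0.80 and -0.25 in the HFD-inulin arrays and by -0.02, 0.04 and -0.02 in the HFD arrays, with 8 of 12 higher. Without Pdk4, the member that differed most (2.42), the HFD-inulin deviations were 0.39, 0.50 and -0.24. The 4 fasting genes with the smallest p were Pck1 (-0.65), Cpt1a (-0.35), Ppargc1a (-0.62) and Igfbp1 (1.29), so the members did not run one way. The part of these groups in the urea cycle values was not tested.

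Markers of other cells and of liver zones were set beside the same arrays. Periportal markers outside the cycle were lower in 7 of 10 (median -0.45), where 56.5% of all probe sets were lower. Of these 10, Hal and Uroc1 are also in the breakdown list and Pck1 and G6pc in the fasting list. At an unadjusted limma p under 0.05, 4 were lower and 0 higher, beside 2.64% and 2.52% of all probe sets. Without overlap 5 were lower, beside 6.02%. The periportal markers deviated by -0.39, -0.66 and -0.07 in the HFD-inulin arrays and by -0.03, 0.06 and -0.03 in the HFD arrays. Pericentral markers were lower in 6 of 10 (median -0.04), deviating by -0.29, -0.62 and 0.22 in the HFD-inulin arrays and by 0.08, -0.08 and 0.00 in the HFD arrays. They include Cyp7a1, of bile acid synthesis, which differed by -2.21, and without it the other 9 deviated by -0.07, -0.11 and 0.16 in the HFD-inulin arrays. Tbx3, higher by 0.42 with groups apart, was the 1 pericentral marker under an unadjusted limma p of 0.05. The 9 neutrophil markers deviated by 0.01, 0.44 and 0.02 in the HFD-inulin arrays and by 0.06, -0.06 and 0.00 in the HFD arrays. Of these markers 5 had a higher and 4 a lower mean (median 0.01), and without S100a8, which differed most, the HFD-inulin deviations were 0.01, 0.28 and -0.02. S100a8 measured 0.61, 2.33 and 0.91 in the HFD-inulin arrays, against 0.82, 0.54 and 0.50 in the HFD arrays. The summed linear signal of the 9 neutrophil markers was 23.1 to 32.1 in HFD-inulin and 22.3 to 24.2 in HFD, and 3 of 9 lay below the median probe set (1.22). The 9 hepatocyte markers summed to 13324 to 14265 in HFD-inulin and 13646 to 14261 in HFD. This sum weighs bright genes most and includes Fgb, also in the acute phase list, at 11.3 in HFD-inulin array 2. Fgb lay at 10.4 to 10.7 in the other arrays. Of the 9 hepatocyte markers, 6 had a lower and 3 a higher mean (median -0.07). At an unadjusted limma p under 0.05, Hnf4a (-0.60, also among the regulators) and Apob (-0.17) were lower and 0 higher. The part of these cells and zones in the urea cycle values was not tested.

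**Figure D4:**
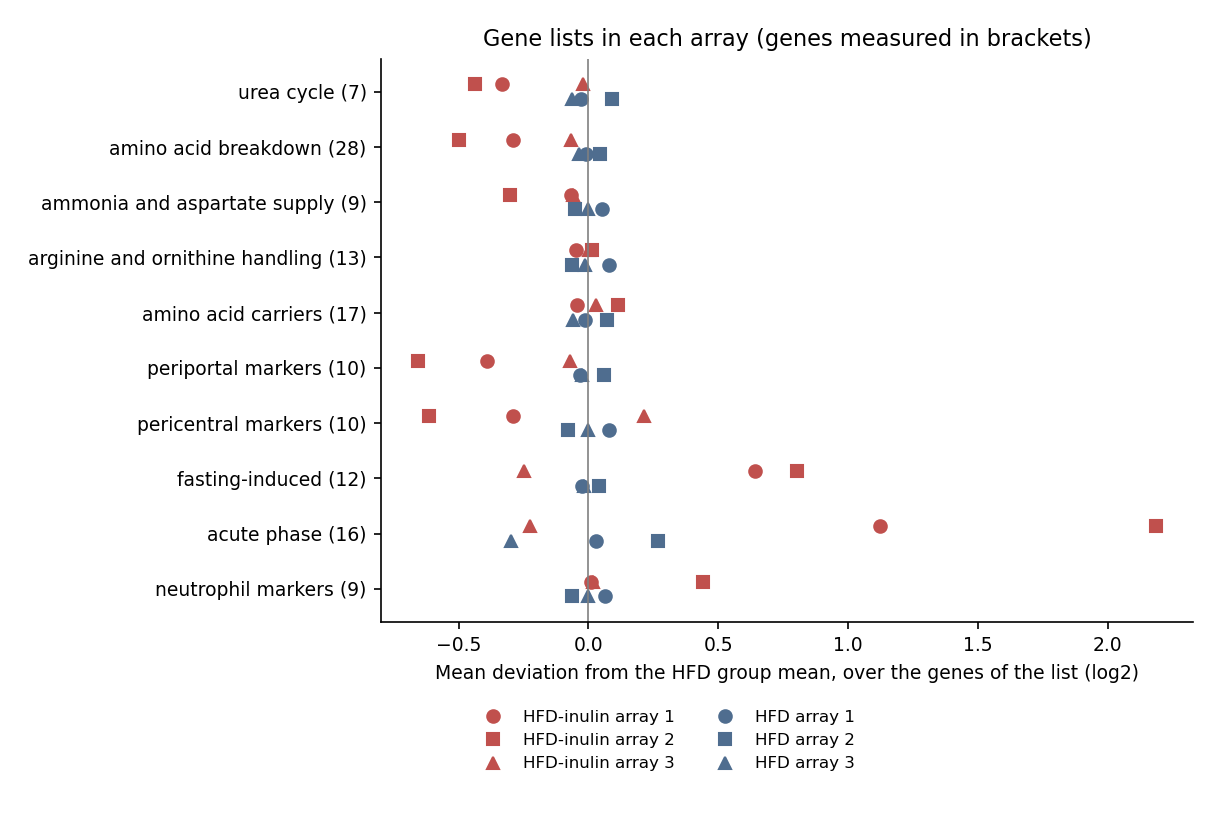
Mean deviation from the HFD group mean (log2) over the genes of each list, with HFD-inulin arrays in red above HFD arrays in blue. The urea cycle set lay at -0.33 and -0.44 in HFD-inulin arrays 1 and 2 and at -0.02 in array 3, and the acute phase list at 1.12, 2.19 and -0.23.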

How the data were processed

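The table the authors deposited holds log2 signals of 65956 probe sets in 6 arrays. Per the submitters' processing notes, Affymetrix Expression Console 1.0 was used. Summarization, background correction, normalization between arrays and genome build are not stated in the sources used here, and log2 was read from the range of the values (array medians 1.17 to 1.26). Without detection calls or scan data, no limit of detection and no scan batch could be examined. The number of arrays limits the precision.

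Probe sets were named through GEO's platform annotation, with symbols updated through RefSeq (GRCm38.p6): 31270 had 1 gene, 1480 several and 33206 no listed symbol, and those with several were not named. Differences are HFD-inulin minus HFD and were tested in R 4.3.3 with limma 3.58.1 (lmFit and eBayes, no filter, two-sided). The p-values were adjusted by Benjamini-Hochberg over the whole table, and the threshold was 0.05. The fit was tested on simulated data. The members, lists and motifs were chosen with earlier results of these data known. All urea cycle genes are named, with the 4 genes of smallest p per pathway list and the 3 genes nearest to Cps1 and to Arg1 among those above the 75th percentile of mean signal. The last was not done for Ass1, whose probe set is shared. The other breakdown enzymes under an unadjusted p of 0.05 and single cell type markers were named after their values were seen. Marker lists covered hepatocytes, both zones, Kupffer cells, neutrophils, sinusoidal endothelium, stellate cells, cholangiocytes, lymphocytes and erythroid cells. Alternatives were quantile normalization, median centring, a trended and robust prior, leaving out probe sets below the median, array weights, a block for the replicate number or for the split, each part of the split, and each array left out. List means without the member of largest difference were added after seeing the data.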

Additional observations from a re-analysis of the deposited data

How the results depend on the processing

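In the 15 alternative settings, 0 of the 7 urea cycle genes passed an adjusted p of 0.05 in limma, and their median difference ran from -0.40 to -0.02. The count of the 7 at an unadjusted limma p under 0.05 was 2 in the comparison reported, beside 3399 of all 65956 probe sets. It was 1 with a trended and robust prior (3272 of all probe sets), 4 after quantile normalization (3081) and 4 with array weights (4921). With median centring it was 3 (3073), and with the split as a block 1 (3420). It ran from 0 to 4 with 1 array left out. The count was 4 when HFD-inulin array 3 was left out (6525) and 1 when HFD array 3 was (2218). It was 0 when array 1 or 2 of HFD-inulin or array 2 of HFD was left out. Each part of the split has 1 array in a group, whose spread is not measured, so only differences are given. Among HFD-inulin arrays 1 and 2 and HFD array 1, Cps1 differed by -0.82, Otc by -0.66 and Asl by -1.05. Among HFD-inulin array 3 and HFD arrays 2 and 3 these were -0.22, 0.08 and -0.02. With the replicate number as a block the count was 2 (3349). The numbers were not read as pairs, since nothing in the labels pairs the animals and the same-numbered deviations correlated at 0.261, -0.278 and 0.404, so not all were positive.

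Cps1, Asl, Slc25a15 and Nags kept their sign in all 15 settings, with ranges of -0.95 to -0.22, -1.07 to -0.02, -0.40 to -0.19 and 0.10 to 0.17. The trended and robust prior, leaving out dim probe sets and the replicate block cannot change a difference, so their signs were fixed in advance. Among HFD-inulin array 3 and HFD arrays 2 and 3, where the single HFD-inulin array is assumed to vary like the others, Otc (0.081), Arg1 (-0.093) and Slc25a13 (0.109) changed sign. With 1 array left out, Arg1 ranged from -0.044 to 0.264 and Slc25a13 from -0.178 to 0.080. Over all probe sets, the trended and robust prior called 4 and the others 0. The count at an unadjusted p under 0.05 was 3399, 1873 without dim probe sets, of which 32978 remained, and 2100 to 6525 with 1 array left out (6525 when HFD-inulin array 3 was left out, and 2100 and 2218 when HFD array 2 or 3 was). Other choices of probe set gave no further value, since each gene has 1. The causes were not tested.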

Other observations

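The remaining marker lists had median differences between -0.14 and 0.06, to be read beside the 56.5% of all probe sets with a lower mean. Kupffer cell markers had a lower mean in HFD-inulin for 6 of 8 genes (median -0.14). Adgre1, the F4/80 antigen, at -0.32 and Timd4 at -0.32 were under an unadjusted p of 0.05 (limma adjusted p = 0.902 each). Of all probe sets, 2.64% were lower at that unadjusted p. The groups overlapped for Timd4, and the Kupffer cell markers Clec4f (0.03) and Vsig4 (0.02) had higher means. Sinusoidal endothelium markers were lower in 6 of 7 (median -0.11). The scavenger receptor gene Stab2 differed by -0.28, and Clec4g, the 1 with a higher mean, by 0.23. Stellate cell markers were lower in 3 of 7 (median 0.06) and cholangiocyte markers in 2 of 5 (median 0.04), where Krt19, a keratin of bile duct cells, measured 1.93, 3.04 and 1.89 in arrays 1, 2 and 3 of HFD-inulin, against 1.90, 1.82 and 1.93 in the HFD arrays. Lymphocyte markers were lower in 4 of 5 (median -0.07) and erythroid markers in 3 of 3 (median -0.04).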
